A study of Saccharomyces cerevisiae with 8 samples.

Results

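The cytosolic ribosomal protein genes of budding yeast encode the proteins of the large and small ribosomal subunits, and their transcripts were followed here under carnitine and hydrogen peroxide. Members were the genes whose symbol is RPL or RPS with a number and an optional A or B, together with the stalk genes RPP0, RPP1A, RPP1B, RPP2A and RPP2B. The array carried 147 probe sets that name exactly 1 of these genes, and they covered 127 of the 5449 genes read on the array, 75 of the large subunit and 52 of the small one. By copy there were 54 A genes, 55 B genes and 18 single-copy genes. The other 10 of the 137 such genes in the RefSeq table were not analysed here.

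Most yeast ribosomal proteins are encoded by a pair of paralogues, A and B, whose proteins are identical or nearly so. Their promoters are bound by Rap1 with Fhl1 and its coactivator Ifh1, and the TOR and protein kinase A pathways tie their transcription to growth. Lower ribosomal protein transcript levels are a known feature of the general stress response of this yeast, alongside genes that assemble ribosomes.

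All cultures were of BY4742, a haploid Saccharomyces cerevisiae strain recorded with the auxotrophic alleles his3, leu2, lys2 and ura3. The 4 groups of 2 biological replicates were an untreated control, carnitine, peroxide (0.4 mM hydrogen peroxide for 30 min) and carnitine with the same peroxide exposure, all in synthetic complete dextrose medium at mid-log phase. The carnitine dose is recorded as 100 mg/L in the series design and as 1000 mg/L in the treatment protocol. The design asks how carnitine and oxidative stress, alone and together, alter transcript levels.

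The deposited signals are linear array intensities that reached 79918, and the array medians over the 5324 genes tested lay between 3044 and 3198. Signals of the marker genes LEU2, LYS2 and URA3 stayed between 3.87 and 4.09, below the detection floor, whereas HIS3 read 10505 to 17056, and it is not known whether its probes lie in the altered stretch. The genotype is recorded as MATa, whereas the α-cell genes MF(ALPHA)1 and STE3 read from 16046 to 51980 and the a-cell genes MFA1 and STE2 from 82.0 to 241. All groups share this background. Below, a change is a log2 difference ± SE from limma, fitted over all 8 arrays, and a gene is said to rise or fall only with a Benjamini-Hochberg adjusted p, taken over all tested genes, below 0.05. With 2 arrays per group, every value has limited precision.

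Ribosomal protein probe sets were among the brightest on the array. All 127 genes lay above the detection floor, a signal of 4.145 set from probe sets of another species, and 111 of them (87.4%) were among the 267 genes in the top 5% of mean signal. Their mean signals ran from 1382 to 59711, with a median of 38561 against 3096 over all tested genes.

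Carnitine alone was not accompanied by a called change in any ribosomal protein gene. In limma 0 of 127 rose or fell at an adjusted p below 0.05, against 1.5% of all tested genes (0.47% rose and 1.03% fell), and 3 had an unadjusted p below 0.05, against 14.5% of all tested genes. These were RPL22B (a change of -0.16 ± 0.067), RPL36A (-0.16 ± 0.054) and RPL41A (-0.71 ± 0.21), with adjusted p of 0.336, 0.243 and 0.178. The median change of the 127 genes was -0.0013, and that of all tested genes -0.0011. Leaving out one array at a time gave 0 or 1 called gene.

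With peroxide, ribosomal protein transcripts were lower as a family on the deposited scale and under poly-A spike scaling, and the direction of the family median was reversed under hybridisation spike scaling. Of the 127 genes 113 fell and 1 rose, while 39.5% of all tested genes fell and 35.3% rose. The median change was -0.32, a 1.24-fold decrease, against -0.025 over all tested genes. Most falls were modest, and 18 genes passed both the adjusted p and a minimum of 1.5-fold, against 44.1% of all tested genes in either direction. In cells given carnitine before peroxide the comparison with carnitine alone gave 120 falls, 1 rise and a median of -0.48, against 39.1% and 35.8% of all tested genes and a median of -0.023. Here 50 genes passed the 1.5-fold minimum as well, against 46.2% of all tested genes.

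Array by array, the family separated by peroxide. Relative to the control mean, the median of the 127 genes was 0.0073 and -0.0073 on the control arrays, 0.0099 and -0.014 with carnitine, -0.36 and -0.27 with peroxide, and -0.57 and -0.48 with both. On the deposited scale the 4 arrays without peroxide lay together, and the 4 with peroxide lay below them, lowest where carnitine had also been given. In 122 of 127 genes all 4 peroxide arrays lay below all 4 arrays without peroxide, which held for 37.5% of all tested genes. In 1 gene, RPL15B, they lay above, against 33.9% of all tested genes. Between replicate arrays the median absolute log2 difference over the family was 0.036 in the control, 0.032 with carnitine, 0.071 with peroxide and 0.073 with both.

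**Figure D1:**
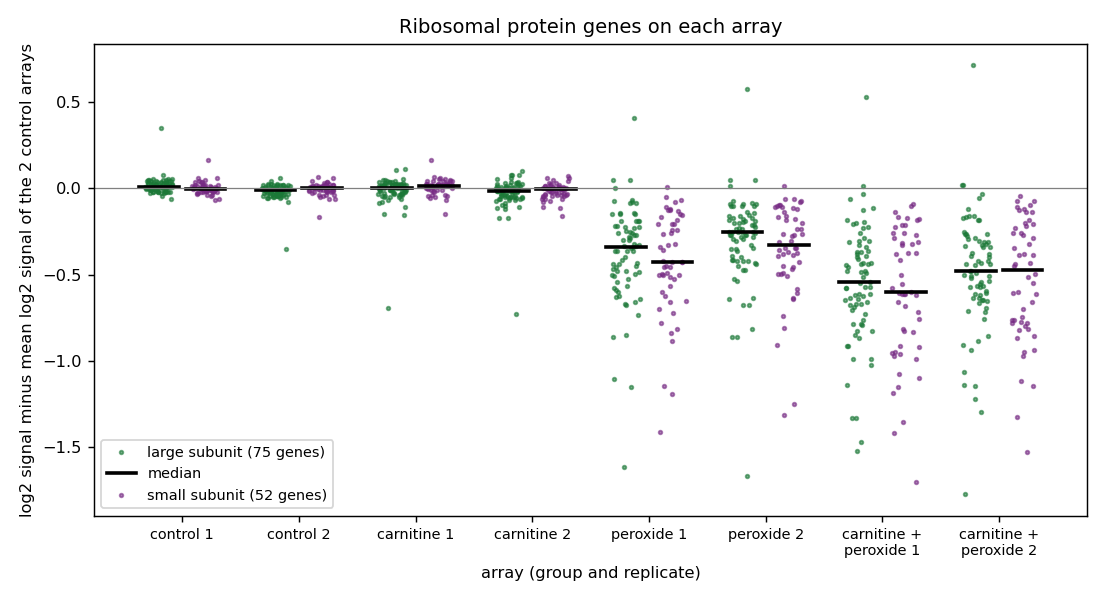
Log2 signal of each ribosomal protein gene on each of the 8 arrays, relative to that gene's mean over the 2 control arrays, on the deposited scale (y axis, log2 units). The 4 arrays without peroxide have family medians within 0.014 of 0, and the 4 with peroxide have medians of -0.36, -0.27, -0.57 and -0.48. The direction of the peroxide median is reversed under hybridisation spike scaling. Under poly-A spike scaling the family median of both treatments against peroxide is 0.60, of opposite sign to the deposited scale.

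These directions are relative to the array medians, which nearly match. In bulk RNA brought to a common array signal, a smaller share of the RNA and less of it per cell cannot be told apart. With the arrays scaled to 11 poly-A spike probe sets, which the array maker provides for RNA added before labelling, the median over all tested genes in peroxide was -0.56 and that of the ribosomal protein genes -0.85, with 122 falls. With the arrays scaled to 18 hybridisation spike probe sets, meant for targets added with the labelled sample, the same medians were 0.44 and 0.15, with 13 rises and 7 falls, so that genes with small falls on the deposited scale have the opposite sign under it. Since they shift all genes alike, both spike scalings left the family 0.29 below the median of all genes, and quantile normalization gave 0.20. The 18 hybridisation spike probe sets did not themselves change alike in peroxide. One with a mean signal of 247 changed by -0.78, and the brightest, at 27715, by -0.13. Scaling to the brightest of them alone was not tested. The 11 poly-A spike probe sets also changed unequally in peroxide, by 0.14 to 0.98. Their mean log2 signal was 8.31 on the first control array and 8.84 on the second. In cells given carnitine the family lay 0.46 below the median of all genes under both spike scalings, with family medians of -0.36 and -0.16, and 34 and 36 falls. The changes of single genes below are on the deposited scale.

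Among the largest falls in peroxide was RPS14B, the second copy of the small subunit protein S14, whose transcript is repressed by S14 itself when the protein is in excess. Its signals were 25101 and 27257 in the control, 23644 and 23394 with carnitine, 9834 and 11000.0 with peroxide and 8051 and 9064 with both. All 4 peroxide arrays lay far below the 4 others, and the groups did not overlap. RPS14B fell by 1.33 ± 0.079, a 2.51-fold decrease (adjusted p = 4.65e-06). With carnitine it fell by 1.46 ± 0.079 (adjusted p = 2.58e-06).

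RPS28B encodes a small subunit protein whose own transcript is targeted for decay through Edc3. Its signals were 31444 and 32464 in the control, 33276 and 30603 with carnitine, 13994 and 12864 with peroxide and 14915 and 16569 with both. The peroxide arrays again lay below the others, and here the arrays with both treatments lay above those with peroxide alone. RPS28B fell by 1.25 ± 0.071, a 2.38-fold decrease (adjusted p = 3.94e-06), and by 1.02 ± 0.071 in cells given carnitine (adjusted p = 7.87e-06).

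RPS7B encodes a small subunit protein needed for maturation of the small subunit RNA. It read 29232 and 30912 in the control, 30257 and 31162 with carnitine, 13597 and 16030.2 with peroxide and 11751 and 13840.3 with both, and fell by 1.03 ± 0.097, a 2.04-fold decrease (adjusted p = 4.32e-05). RPL6B and RPL13A, of the large subunit, gave falls of similar size. RPL6B read 35927 and 38989 in the control, 35713 and 35884 with carnitine, 16839.6 and 20644 with peroxide and 13516 and 15227 with both, a fall of 1.01 ± 0.10, a 2.01-fold decrease (adjusted p = 5.57e-05). RPL13A read 39113 and 38091 in the control, 37570.1 and 40772 with carnitine, 17969.6 and 21284 with peroxide and 15364 and 17445 with both, a fall of 0.98 ± 0.093, a 1.97-fold decrease (adjusted p = 4.19e-05). In all 3 genes every peroxide array lay below every array without peroxide. The falls in cells given carnitine were 1.27 ± 0.097, 1.32 ± 0.10 and 1.26 ± 0.093, each with an adjusted p below 0.05.

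RPL41A, which encodes a very short protein at the interface of both subunits, had the most negative estimate and also a wide spread between its control arrays. Its probe set is a shared one and the dimmest of the family. It read 3520.3 and 2166 in the control, 1708 and 1668 with carnitine, 901 and 871 with peroxide and 963 and 808 with both. The 2 controls differed by more than the carnitine arrays did from the lower control. It fell by 1.64 ± 0.21, a 3.12-fold decrease (adjusted p = 0.000215) in peroxide, and by 0.94 ± 0.21 in cells given carnitine (adjusted p = 0.00418).

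RPL15B, the second copy of a large subunit protein that is needed early in assembly of that subunit, was the 1 gene that rose. It read 5101 and 4904 in the control, 5156 and 5372 with carnitine, 6636 and 7457 with peroxide and 7225 and 8202 with both. All 4 peroxide arrays lay above all 4 others. RPL15B rose by 0.49 ± 0.084 (adjusted p = 0.00103) and by 0.55 ± 0.084 in cells given carnitine (adjusted p = 0.000541). Under poly-A spike scaling its change in peroxide was -0.047. Its mean signal, 6144, was the second lowest of the family.

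Several large subunit genes were among those with the smallest changes. RPL3 encodes a protein that reaches the peptidyl transferase centre, and it read 49337 and 50559 in the control, 49402 and 50365 with carnitine, 51579 and 51624 with peroxide and 47956 and 48887 with both. RPL10, whose protein joins late in maturation and is needed for subunit joining, read 53781 and 53449 in the control, 53273 and 54238 with carnitine, 55491 and 55386 with peroxide and 54114 and 54417 with both. RPL4A, read on a shared probe set, encodes a protein that lines the exit tunnel and read 51863 and 52354 in the control, 50479 and 52382 with carnitine, 52149 and 52559 with peroxide and 51059 and 52951 with both. Their changes in peroxide were 0.047 ± 0.036, 0.048 ± 0.034 and 0.0068 ± 0.039, with adjusted p of 0.266, 0.227 and 0.887. The changes in cells given carnitine were -0.043 ± 0.036, 0.014 ± 0.034 and 0.016 ± 0.039, again not called.

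In the small subunit the least changed genes in peroxide were RPS31, RPS20 and RPS23A. RPS31 encodes a fusion of ubiquitin to a ribosomal protein and read 59769 and 60687 in the control, 60831 and 60121 with carnitine, 60567 and 60737 with peroxide and 56605 and 58497 with both. RPS20, at the head of the small subunit, had a change of -0.070 ± 0.041 (adjusted p = 0.156), and RPS23A, read on a shared probe set and encoding a protein near the decoding site, one of -0.070 ± 0.035 (adjusted p = 0.11). On its own probe set RPS23A fell by 0.15 ± 0.041 (adjusted p = 0.0117). RPS31 itself changed by 0.010 ± 0.035 (adjusted p = 0.813) and by -0.072 ± 0.035 in cells given carnitine (adjusted p = 0.101). RPL40A, another ubiquitin fusion, changed by -0.083 ± 0.040 and -0.065 ± 0.040, neither of them called (adjusted p = 0.0936 and 0.169). RPL40B, the second gene for the same fusion, changed by -0.31 ± 0.078 (adjusted p = 0.00725) and -0.45 ± 0.078 (adjusted p = 0.00104). The genes not called in peroxide were RPL3, RPL4A, RPL10, RPL11B, RPL30, RPL40A and RPP2B of the large subunit and RPS3, RPS4B, RPS12, RPS20, RPS23A and RPS31 of the small one. RPL11B, like RPS23A, was read on a shared probe set, and on its own it fell by 0.16 ± 0.035 (adjusted p = 0.00342).

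The stalk of the large subunit, built on P0 and the acidic proteins P1 and P2, recruits elongation factors. RPP0 read 46423 and 49269.6 in the control, 48557 and 47607 with carnitine, 41179 and 43561 with peroxide and 36318 and 38582 with both, and fell by 0.18 ± 0.051 (adjusted p = 0.0152), a call that was lost without the second control array (adjusted p = 0.103) and without the first peroxide array (adjusted p = 0.0821). RPP1A fell by 0.31 ± 0.054, RPP1B by 0.36 ± 0.066 and RPP2A by 0.20 ± 0.042, with adjusted p of 0.00122, 0.00152 and 0.003. RPP2B changed by -0.079 ± 0.035 and was not called (adjusted p = 0.0745). In cells given carnitine all 5 fell, from 0.22 for RPP2B to 0.56 for RPP1B. Under hybridisation spike scaling the changes of RPP0, RPP1A, RPP1B and RPP2A in peroxide, and of RPP2B in cells given carnitine, have the opposite sign.

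**Figure D2:**
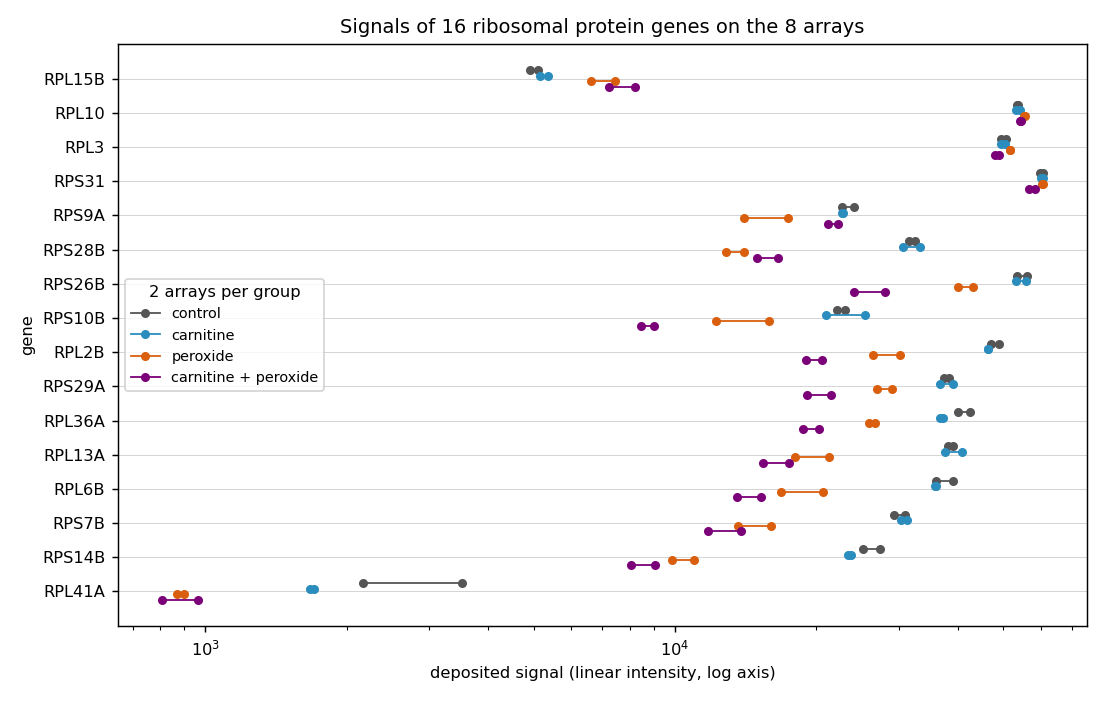
Deposited signal (x axis, linear intensity on a log axis) of 16 named ribosomal protein genes on each of the 8 arrays, each point 1 array, coloured by group, with a line joining the 2 arrays of a group. In RPS14B, RPS28B, RPS7B, RPL6B and RPL13A the 4 peroxide arrays lie below the 4 others, and in RPL15B above them. Under poly-A spike scaling the peroxide change of RPL15B is negative.

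Genes with brighter probe sets had smaller falls. Brightness was taken here from the 2 arrays that take no part in a comparison, those with carnitine alone for peroxide against control and the control arrays for both treatments against carnitine. In peroxide the 42 dimmest genes, at 1688 to 42119, had a median change of -0.41, the 43 in the middle one of -0.36, and the 42 brightest, at 49475 to 61123, one of -0.18. In cells given carnitine the same medians were -0.66, -0.48 and -0.30. Across the 127 genes, which share the same arrays, log2 brightness and the change had a Pearson r of 0.41 and a Spearman rho of 0.50 in peroxide, and of 0.17 and 0.47 in cells given carnitine, given as a description.

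Other genes with signals in the brightest range also changed little. The 23 of them had a median absolute change of 0.089 in peroxide, against 0.090 for the 31 in the middle range and 0.36 for the 344 between 20000 and the middle range. RPL3, RPL10, RPL4A, RPS31, RPS20, RPS23A and RPL40A were all among the 42 brightest. The part of array saturation in these sizes was not tested, and a small change at such a signal does not show a stable transcript. From the brightest range to the dimmest, the ribosomal protein genes had medians of -0.18, -0.36 and -0.41, the last over the 39 of at least 20000, and the other genes 0.065, -0.040 and -0.24.

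**Figure D3:**
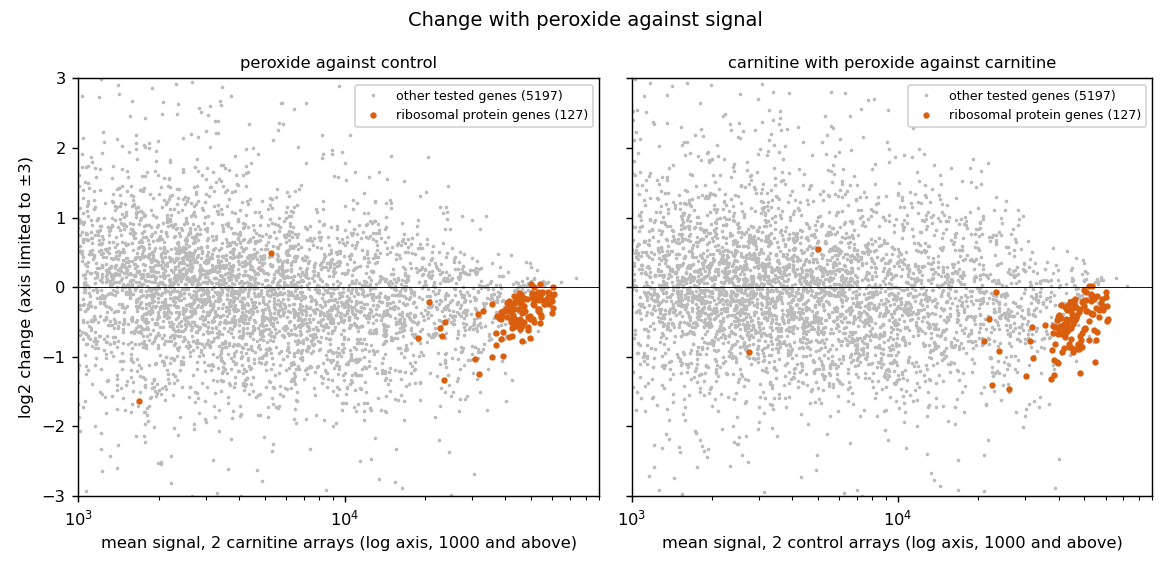
Change with peroxide (y axis, log2, deposited scale) without carnitine on the left and with it on the right, against the mean signal over the 2 arrays that take no part in that comparison (x axis, log scale), for ribosomal protein genes and for the other tested genes. On the left, median changes of the ribosomal protein genes are -0.41, -0.36 and -0.18 from the 42 dimmest through the 43 in the middle to the 42 brightest. Hybridisation spike scaling reverses the family median in peroxide.

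In both peroxide comparisons large and small subunit genes had medians below 0 on the deposited scale, the small subunit's slightly lower. Both medians were above 0 in peroxide against control under hybridisation spike scaling (0.16 and 0.090). In peroxide 75 large subunit genes had a median change of -0.31, with 67 falls and 1 rise, and 52 small subunit genes one of -0.37, with 46 falls and 0 rises. In cells given carnitine the medians were -0.47 and -0.53, with 70 and 50 falls. The small subunit median was lower by 0.067 and 0.056 in the 2 comparisons, and by 0.039 to 0.089 and 0.017 to 0.10 with one array left out at a time, against a pooled replicate SD of 0.025 for this difference. No test of it was made. The order of the subunits varied with brightness, taken from the 2 arrays outside each comparison. In peroxide the large and small subunit medians were -0.36 and -0.54 in the dimmest range, and -0.31 and -0.43 in the middle. In the brightest range they were -0.19 and -0.15, with the large subunit lower. In cells given carnitine the small subunit was lower in every range, at -0.29 and -0.33 in the brightest. Between cells with both treatments and cells with peroxide alone the medians were -0.18 and -0.13, on the deposited scale, and 0.58 and 0.63 under poly-A spike scaling. Here the large subunit's median was the lower one on each scale.

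Between A and B paralogues neither letter was favoured, but single pairs diverged. Of 57 pairs, 47 had both copies on probe sets that could be compared, and the other 10 had a copy without its own reading. In peroxide the A copy had the lower change in 21 pairs and the B copy in 26, with medians of -0.41 for A and -0.45 for B. The median absolute difference within a pair was 0.23, and 6 pairs differed by more than 0.5. The copy that was dimmer on the arrays with carnitine alone had the lower change in 27 of the 47 pairs. The part of brightness in these differences was not tested. With carnitine alone, the largest difference within any of the 47 pairs was 0.19. The SE of a difference treats the copies as independent, and no test was made on the pairs, 6 of which were picked for their size. A gene's own probe set may still bind the transcript of a near-identical copy, which was not tested.

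The widest pair was RPS14. RPS14A read 49299.9 and 49733 in the control, 49980.2 and 50610.3 with carnitine, 45424 and 46275 with peroxide and 42812 and 45142 with both, with the 4 peroxide arrays below the others and close to them, and changed by -0.11 ± 0.040 in peroxide (adjusted p = 0.0349). The call for RPS14A was lost when any 1 of the control, carnitine or peroxide arrays was left out, with adjusted p from 0.0557 to 0.127, while the fall of RPS14B held in each of those fits. RPS14A changed by 1.22 ± 0.089 relative to RPS14B. RPS28A fell by 0.43 ± 0.053 against the larger fall of RPS28B, a difference of 0.82 ± 0.089. RPS14A had a mean signal of 47333 and RPS14B one of 15289.9, so these copies were read at different places on the signal scale.

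In 2 of the other wide pairs the A copy was the lower one. RPL13A fell by more than RPL13B, which fell by 0.28 ± 0.044, and the difference was -0.71 ± 0.10. RPL15A fell by 0.21 ± 0.045 while RPL15B rose, a difference of -0.70 ± 0.095. On the deposited scale these copies moved in opposite directions with both changes called. The change of RPL15B was negative under poly-A spike scaling, and that of RPL15A was positive under hybridisation spike scaling. Their mean signals were 38482 for RPL15A and 6144 for RPL15B, at different places on the signal scale. RPL15A read 44341 and 41282 in the control, 41413 and 41287 with carnitine, 37474 and 36492 with peroxide and 33177 and 33865 with both. In RPL2 and RPL6 the B copy was the lower one. Their A minus B differences were 0.55 ± 0.085 and 0.50 ± 0.14, with a fall of 0.22 ± 0.051 on RPL2A's own probe set and of 0.50 ± 0.10 for RPL6A.

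**Figure D4:**
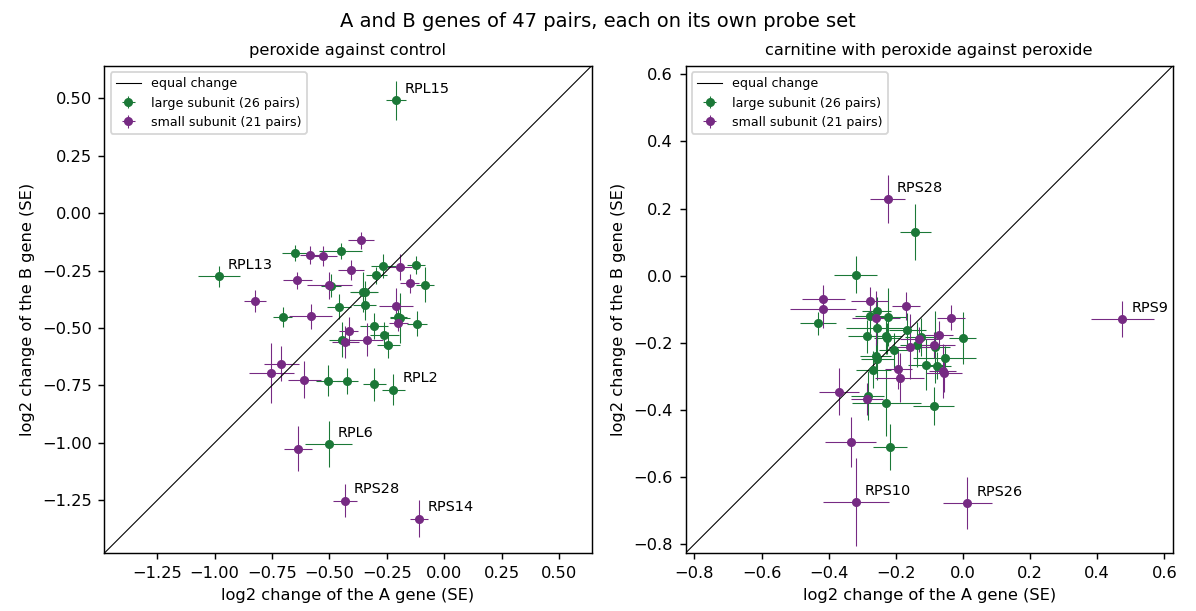
Change of the B copy (y axis) against change of the A copy (x axis), in log2 units on the deposited scale, for the 47 comparable pairs, in peroxide against control and in carnitine with peroxide against peroxide. Bars are the SE from limma, points on the diagonal changed equally, and RPS14, RPS28, RPL13 and RPL15 lie farthest from it in peroxide. Spike scaling shifts all genes of an array alike, so it cannot alter a difference within a pair.

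In most genes that had both kinds, probe sets shared with other genes gave smaller falls than the gene's own probe set. Of the 147 probe sets 29 end in _s_at or _x_at, the array maker's marks for probes that match more than 1 transcript. The readings of 24 of the 127 genes come from such a set. In 20 genes both kinds of probe set were present. The own set had the lower change in 16 of them in peroxide, with medians of -0.34 for own sets and -0.25 for shared ones, and in 16 in cells given carnitine, with -0.51 and -0.31. The shared set was the brighter one on the arrays with carnitine alone in 14 of the 20, and the part of brightness in this difference was not tested. No gene had called changes of opposite direction on its 2 probe sets.

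RPL18B gave the widest contrast of this kind. Its own probe set read 15714 and 13839 in the control, 12810.3 and 14644 with carnitine, 4701 and 6518 with peroxide and 4605 and 4362 with both. Its shared set read 55539.8 and 54749 in the control, 55205 and 56483 with carnitine, 47378 and 49363 with peroxide and 44529.6 and 45932 with both. Both were lower on the peroxide arrays, by 1.41 ± 0.15 and 0.19 ± 0.039 in peroxide. In RPS8A, the only other gene of the 20 whose probe sets differed by more than 0.5 in that comparison, the falls were 0.64 and 0.10. Taking the own probe set wherever one existed, a choice made after the data were seen, called 115 and 121 genes in the 2 comparisons and gave a median of -0.34 in peroxide and -0.53 in cells given carnitine.

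**Figure D5:**
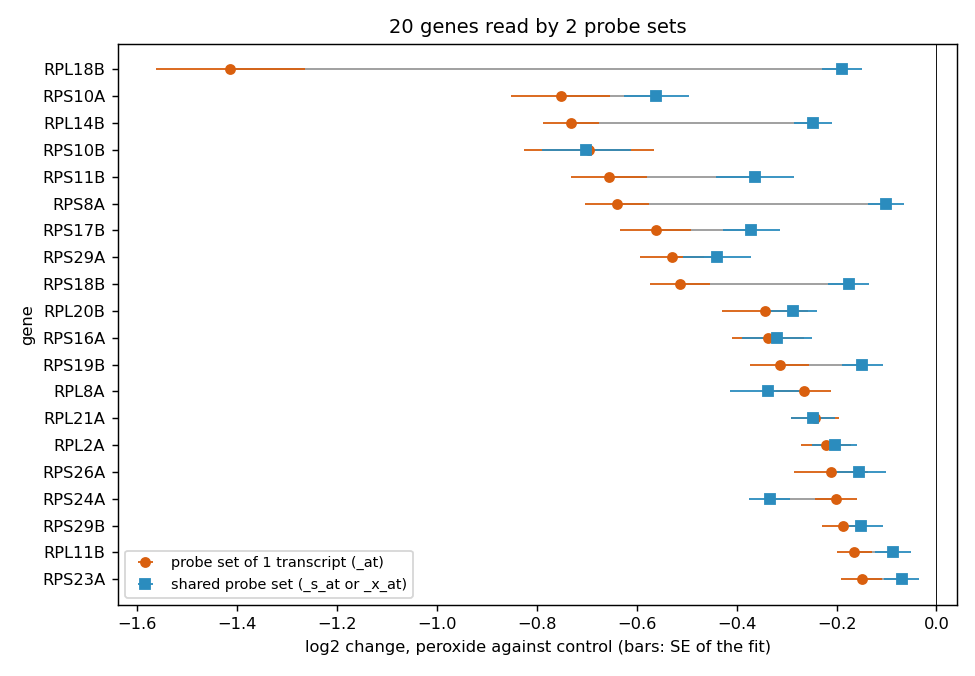
Change on a gene's own probe set and on its shared probe set for the 20 ribosomal protein genes that have both, in log2 units on the deposited scale. The own set has the lower change in 16 of 20 genes in peroxide, and RPL18B and RPS8A differ most. Spike scaling shifts all probe sets of an array alike, so it cannot alter a difference between them.

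Among cells exposed to peroxide, those given carnitine had lower ribosomal protein signals on the deposited scale and, by 0.097, under hybridisation spike scaling, but higher ones under poly-A spike scaling. On the deposited scale 65 of 127 genes fell and 2 rose, against 16.7% and 18.8% of all tested genes. The median change was -0.16 against 0.0078 over all tested genes, and 2 genes passed the 1.5-fold minimum as well, against 10.3% of all tested genes. The arrays with both treatments lay below both peroxide arrays in 105 genes, against 36.0% of all tested genes. Under poly-A spike scaling 86 genes rose and 0 fell, with an all-gene median of 0.77 and a family median of 0.60. Under hybridisation spike scaling 1 rose and 3 fell. The family lay 0.17 below the median of all genes under both. The count of 67 called genes dropped to 24 without the first array of both treatments and to 29 without the second peroxide array, and was up to 71 with other arrays left out.

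Of the 6 genes with the largest falls here, 4 were of the small subunit. RPS26B encodes a protein at the mRNA exit channel, delivered by the chaperone Tsr2. It read 56239.9 and 53497 in the control, 55933 and 53121 with carnitine, 39931 and 43150.2 with peroxide and 24079.8 and 28004 with both. The arrays with both treatments lay below both peroxide arrays, which lay below the rest. RPS26B fell by 0.68 ± 0.077, a 1.60-fold decrease (adjusted p = 0.00263). RPS10B, whose protein sits in the head of the small subunit near the mRNA entry, read 22169 and 23022 in the control, 25378 and 20983 with carnitine, 12247 and 15884 with peroxide and 8460.5 and 9027 with both. It fell by 0.67 ± 0.13, a 1.60-fold decrease (adjusted p = 0.00808), and this call was lost without the first array of both treatments (adjusted p = 0.0535). Their peroxide effects without carnitine were falls of 0.40 ± 0.077 and 0.70 ± 0.13.

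RPL2B, whose protein lies close to the peptidyl transferase centre, read 48985 and 46979 in the control, 46343 and 46284 with carnitine, 26367 and 30089 with peroxide and 19045 and 20549.8 with both, and fell by 0.51 ± 0.069 (adjusted p = 0.00329). RPS29A, read on a probe set ending in _x_at, fell by 0.46 ± 0.068, and RPL36A by 0.43 ± 0.054 (adjusted p = 0.00359 and 0.00291). RPS19A, needed for maturation of the small subunit, fell by 0.42 ± 0.098 (adjusted p = 0.0161). That call was lost without the second peroxide array and without the first array of both treatments (adjusted p = 0.0833 and 0.0938). In each of these 4 genes both arrays with both treatments lay below both peroxide arrays. All 6 of these falls have the opposite sign under poly-A spike scaling.

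RPS9A went the other way. It encodes a protein at the mRNA entry channel of the small subunit, and it read 24018 and 22699 in the control, 22692 and 22779 with carnitine, 17403 and 14012 with peroxide and 21209 and 22213 with both. The peroxide arrays were the lowest, and the arrays with both treatments lay close to those without peroxide. RPS9A fell by 0.58 ± 0.093 in peroxide, rose by 0.48 ± 0.093 when carnitine was added to peroxide (adjusted p = 0.00867), and had a change of -0.067 ± 0.093 in cells given carnitine that was not called (adjusted p = 0.542). Its paralogue RPS9B changed by -0.13 ± 0.054 in the comparison with peroxide alone, and the pair differed by 0.60 ± 0.11. RPS26 differed by 0.69 ± 0.11 in the same comparison, RPS26A changing by 0.013 ± 0.074 on its own probe set. These were the only 2 of 47 pairs that differed by more than 0.5. RPS28B was the other gene that rose, by 0.23 ± 0.071 (adjusted p = 0.0415), and this call was lost when either control array, the second peroxide array or the second array of both treatments was left out (adjusted p = 0.0631 to 0.206).

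The interaction term asks whether the effect of peroxide differed with carnitine. It was called for 19 of the 127 genes, 18 with a larger fall in cells given carnitine and 1, RPS9A, with a smaller one. That share is close to the 12.8% called over all tested genes, while the split differs, since 5.11% of all tested genes had a called negative term and 7.72% a positive one. The median term was -0.16 against 0.0066 over all tested genes. The count fell to 0 without the first control array, either carnitine array, the second peroxide array or the first array of both treatments. It was 1 without the second control array, 4 without the second array of both treatments and 39 without the first peroxide array. The terms of RPS10B (-0.71 ± 0.18, adjusted p = 0.047) and RPS26B (-0.67 ± 0.11, adjusted p = 0.0205) were the most negative. Under poly-A spike scaling the median term was 0.50, of opposite sign, and under hybridisation spike scaling it was -0.30. Side by side, and with no array in common, the peroxide changes of the 127 genes without and with carnitine had a Pearson r of 0.87 and a Spearman rho of 0.91, a description of genes that share the arrays within each comparison and differ in brightness.

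Genes that act on ribosomal protein genes or their products are given next, on the deposited scale unless said. Beside the counts below, 35.3% of all tested genes rose and 39.5% fell in peroxide, 35.8% and 39.1% in cells given carnitine, and 18.8% and 16.7% with carnitine added to peroxide. Of 16 regulators of ribosomal protein transcription, 4 rose and 10 fell in peroxide, and under hybridisation spike scaling 6 rose and 4 fell. IFH1, the coactivator at ribosomal protein promoters, fell by 1.49 ± 0.12 (adjusted p = 2.18e-05). TOR1, the kinase of the growth pathway, fell by 1.38 ± 0.089 (adjusted p = 6.29e-06), and TOD6, a repressor that acts on ribosome biogenesis genes, by 1.40 ± 0.11 (adjusted p = 1.99e-05). In cells given carnitine 4 rose and 9 fell. With carnitine added to peroxide 8 rose and 1 fell.

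Dedicated chaperones and importers carry newly made ribosomal proteins to the nucleus. The list of 11 genes for these roles also held BUD23, which acts on ribosomal RNA. Of the 11, 10 fell and 0 rose in peroxide, against 39.5% and 35.3% of all tested genes. The same counts held in cells given carnitine. Under hybridisation spike scaling 5 fell and 1 rose in peroxide. TSR2, the chaperone of the S26 protein, fell by 0.96 ± 0.051 (adjusted p = 2.87e-06), BCP1, a chaperone of L23, by 0.97 ± 0.052 (adjusted p = 2.93e-06), and PSE1, an importer, by 0.80 ± 0.046 (adjusted p = 3.99e-06). With carnitine added to peroxide 5 of the 11 rose and 1 fell.

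Among 14 tested elongation factors and ribosome-bound proteins 8 fell and 1 rose in peroxide, against 39.5% and 35.3% of all tested genes, and 10 fell and 2 rose in cells given carnitine. HYP2, the translation factor eIF5A, fell by 0.39 ± 0.039 (adjusted p = 5.81e-05) and TMA7, a ribosome-associated protein, by 0.68 ± 0.073 (adjusted p = 8.79e-05). HEF3, a paralogue of the translation elongation factor YEF3, rose by 2.43 ± 0.30 (adjusted p = 0.000164). With carnitine added to peroxide 2 rose and 2 fell. Under hybridisation spike scaling the median of the 14 in peroxide turned from -0.26 to 0.21. Of 12 genes for chaperones and enzymes at the exit tunnel 9 fell and 0 rose in peroxide, against the same shares of all tested genes, and 10 fell in cells given carnitine. NAT5, a subunit of an N-terminal acetyltransferase, fell by 1.17 ± 0.077 (adjusted p = 7.1e-06), the ribosome-bound Hsp70 SSB2 by 0.75 ± 0.057 (adjusted p = 1.41e-05) and its partner SSZ1 by 0.56 ± 0.074 (adjusted p = 0.000245). Their median in peroxide was -0.24, and 0.22 under hybridisation spike scaling.

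Ribosome assembly genes and mitochondrial ribosomal protein genes had other medians than the cytosolic family, and no test of the difference was made. The 56 assembly genes had a median of -0.90 in peroxide (49 fell and 2 rose, against 39.5% and 35.3% of all tested genes) and -0.98 in cells given carnitine (52 fell and 0 rose, against 39.1% and 35.8%). With carnitine added to peroxide their median was 0.047, and 8 rose and 8 fell, against 18.8% and 16.7% of all tested genes. Under poly-A spike scaling 50 of them rose and 0 fell in that comparison, with a median of 0.81. The 66 mitochondrial ribosomal protein genes had medians of 0.086, 0.32 and 0.21 in the same 3 comparisons. Of these, 19 rose and 11 fell in peroxide, 44 rose and 2 fell in cells given carnitine, and 22 rose and 0 fell with carnitine added to peroxide, set against the same all-gene shares. Under poly-A spike scaling the mitochondrial median in peroxide was -0.45, of opposite sign, while the assembly median stayed below 0 under both spike scalings in both peroxide comparisons. The median signal of the mitochondrial family was 4925 and that of the assembly genes 7118, below the 38561 of the cytosolic one, and the part of brightness in the differences of size between families was not tested.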

How the data were processed

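RNA from 8 cultures was hybridised to Affymetrix yeast arrays. The deposited values are linear intensity, 1 signal per probe set and array. The software named is GCOS, per the submitters' processing notes; for probe summary, background correction and scaling, the steps taken are not given in the sources. Gene names came from the platform table and from RefSeq. One probe set per gene was used, that with the highest mean log2 signal. Of 5449 genes 125 below the floor (the 95th percentile of 1746 fission yeast probe sets) were left out. Log2 signals, with no further normalization, went into limma 3.58.1 under R 4.3.3 (a mean per group over 8 arrays, eBayes with a trend), and p-values were adjusted by Benjamini-Hochberg over 5324 genes in each of 5 comparisons. With 2 cultures per group, p-values measure the spread between cultures. The fit was tested on simulated data with independent noise and few changed genes, a setting unlike the peroxide comparisons.

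The members and lists were chosen with earlier results of these data known. In each comparison the named genes were members called against the majority, the 6 largest rises and falls among called genes with no overlap between arrays, and in peroxide the 6 smallest changes, the 6 widest paralogue pairs, the stalk genes and up to 3 genes per list. RPL22B, RPL40B, RPS9B, RPS26A, RPL18B, RPS8A and the uncalled RPL11B, RPL30, RPS3, RPS4B and RPS12 were named after their values were seen. Alternatives were quantile normalization, spike scalings, other filters, no trend, an offset of 50, all probe sets, unshared probe sets, a replicate block, a 1.5-fold minimum and leaving out each array. Taking own probe sets first, crossing the carnitine replicate numbers and taking brightness from arrays outside a comparison were added after the data were seen. No sequences or coordinates were used. Figures were drawn with matplotlib 3.10.9.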

Additional observations from a re-analysis of the deposited data

Results flagged for a closer look

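On the deposited scale limma's interaction term was called for 19 of the 127 ribosomal protein genes, against 12.8% of all tested genes. Calls were at a Benjamini-Hochberg adjusted p below 0.05. With no variance trend 2 genes were called, and under poly-A spike scaling the family's median term was 0.50, of opposite sign. The dependence on single arrays is given above. Each term below is the log2 effect of peroxide in cells given carnitine minus that in cells not given it, ± SE, on the deposited scale. In the large subunit the terms were negative for RPL14A (-0.26 ± 0.067), RPL16A (-0.34 ± 0.090), RPL23A (-0.27 ± 0.062), RPL24A (-0.22 ± 0.055), RPL26A (-0.29 ± 0.074), RPL2B (-0.46 ± 0.097), RPL33B (-0.39 ± 0.080), RPL34A (-0.26 ± 0.065), RPL34B (-0.21 ± 0.055) and RPL43B (-0.23 ± 0.056). The acidic stalk gene RPP2A had a term of -0.26 ± 0.059. In the small subunit they were negative for RPS10B (-0.71 ± 0.18), RPS17A (-0.38 ± 0.085), RPS21B (-0.21 ± 0.054), RPS22B (-0.39 ± 0.068), RPS25B (-0.30 ± 0.079), RPS26B (-0.67 ± 0.11) and RPS29A (-0.46 ± 0.096). The 1 positive term was that of RPS9A (0.51 ± 0.13).

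RPS10B fell by 0.70 ± 0.13 in peroxide without carnitine and by 1.40 ± 0.13 with it, and RPS26B by 0.40 ± 0.077 and 1.07 ± 0.077. RPS9A fell by 0.58 ± 0.093 without carnitine and changed by -0.067 ± 0.093 with it. No group had the 4 or more arrays that a check for outlying arrays needs. RPL14A, RPL16A, RPL23A, RPL24A, RPL26A, RPL34A, RPL34B, RPL43B, RPS17A, RPS21B and RPS25B are named here because their terms were called, and not by the rule for named genes.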

How the results depend on the processing

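Comparisons are taken in the order carnitine against control, peroxide against control, both against carnitine, both against peroxide, and interaction. Scaling to poly-A spikes gave family medians of 0.10, -0.85, -0.36, 0.60 and 0.50, with 35 and 2 genes called in the third and the fifth. Scaling to hybridisation spikes gave 0.21, 0.15, -0.16, -0.097 and -0.30, with 20, 37, 4 and 2 called from the second on. The cause of the disagreement between the spikes was not tested. Under poly-A scaling RPL15B changed by -0.047 in peroxide, RPL2B by 0.25, RPL36A by 0.33, RPS10B by 0.089, RPS19A by 0.35, RPS26B by 0.087, RPS29A by 0.30, RPP0 by 0.59, RPP2A by 0.55 and RPP2B by 0.65 between both treatments and peroxide, and the interaction terms were 0.20 for RPL2B, 0.27 for RPL33B, 0.27 for RPS22B, 0.20 for RPS29A and 0.40 for RPP2A. Under hybridisation scaling HYP2 changed by 0.070, RPL13B by 0.19, RPL15A by 0.25, RPL2A by 0.26, RPS14A by 0.35, RPS28A by 0.029, RPP0 by 0.29, RPP1A by 0.16, RPP1B by 0.10 and RPP2A by 0.26 in peroxide, and RPP2B by 0.10 in cells given carnitine. Quantile normalization gave a median of -0.27 and a large minus small subunit difference of 0.11 in peroxide. The interaction count was 8 with no filter, 47 with a filter at the 40th percentile and 2 with no variance trend. Taking own probe sets first gave large minus small differences of 0.097, 0.12 and -0.021 in the 3 comparisons after carnitine alone and a median of -0.53 in the third. Genes on their own probe sets alone gave -0.56 there. A 1.5-fold minimum left 18, 50, 2 and 2 genes from the second comparison on. Leaving out 1 array gave counts of 0 to 1, 100 to 114, 117 to 121, 24 to 71 and 0 to 39, medians of -0.014 to 0.0099, -0.36 to -0.27, -0.54 to -0.46, -0.20 to -0.12 and -0.21 to -0.13, and large minus small differences of -0.020 to 0.00067, 0.039 to 0.089, 0.017 to 0.10, -0.051 to -0.018 and -0.030 to -0.0021. The labels do not say that replicate numbers pair cultures, and correlations of replicate differences between groups ran from -0.11 to 0.13. With a replicate block the counts were 0, 113, 121, 67 and 25, and with the carnitine numbers crossed 0, 113, 121, 65 and 17. Of 1329 recomputed values 1121 kept their direction and call, or moved by less than the replicate spread. The 2 arrays per group and signals near the top of the scale limit the sizes given.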

Other observations

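The ubiquitin fusion genes RPS31, RPL40A and RPL40B had a median change of -0.083 in peroxide and -0.072 in cells given carnitine, on the deposited scale, with 1 of the 3, RPL40B, falling in each. They are listed here after their values were seen.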
